A study of Sus scrofa with 12 samples.

Results

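The comparison described here set the hearts of vector-treated heart failure pigs against those of healthy controls. It covers 8 of the 12 left ventricles in the series, 4 labelled HF KBD and 4 chow control, chosen by their treatment labels alone. All animals were female Ossabaw swine, a strain prone to obesity. Chow control animals ate standard chow and had neither aortic banding nor vector. HF KBD animals were put on a high-fat diet when 2 months old and then had the aorta banded, which raises the pressure the ventricle works against. The combination is meant to model HFpEF, heart failure in which the ejection fraction is preserved. Straight after banding they received AAV9sc.KBD, a self-complementary adeno-associated virus of serotype 9, into a vein at 8e12 vector genomes per kg (3e14 in all), and tissue was taken 6 months later. The labels describe the vector as made for expression of the KBD peptide in cardiomyocytes, and its name in the count table carries cTnT, the cardiac troponin T gene. A further group of 4 animals had the same diet and banding with saline (HF saline), and its values are given beside those of HF KBD. Diet, banding and vector all differed between HF KBD and chow control, so their effects cannot be told apart in this comparison. The labels give a single batch and a wildtype genotype for all animals. Levels come from whole tissue, where fewer cells of a type and less RNA per cell cannot be told apart.

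KBD stands for the kinase binding domain of AKAP6, also called mAKAP, a scaffold protein at the nuclear envelope of cardiomyocytes. The scaffold gathers protein kinase A, phosphodiesterase 4D, calcineurin, the kinase ERK5 and the ribosomal S6 kinase RSK3 near transcription factors such as MEF2 and NFAT, and this complex takes part in hypertrophic signalling. The failing heart is known for a return of fetal genes such as the natriuretic peptides, for fibrosis, and for altered use of fatty acids and glucose.

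Depth was similar in the 2 groups, from 7721640 to 12638000 expected counts in chow control and from 9353330 to 11215700 in HF KBD. Cardiomyocyte markers summed to between 48596 and 52068 CPM in chow control animals and to between 40230 and 49063 CPM in HF KBD animals, CPM being counts per 1000000 after scaling by library size and composition. The atrial markers MYBPHL and BMP10 had 0 counts in all 8 animals. The vector transcript was at 24.9, 42.8, 24.0 and 65.3 CPM of the column total in HF KBD replicates 1 to 4, a mean of 39.2 ± 19.4 (SD, n = 4), and at 0 in every chow control animal (exact two-sided permutation p = 0.0286, the smallest that 4 against 4 allows). The pig gene AKAP6, which the naming rule did not select, stood at 84.0, 80.7, 100.4 and 79.9 CPM in chow control and at 91.6, 103, 98.7 and 91.1 CPM in HF KBD. The log2 difference was 0.15 ± 0.08 (SE) with an edgeR adjusted p = 0.464. The AKAP6 groups overlapped, and whether reads from the vector were counted to this gene was not tested.

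Of 13476 genes tested, 7 differed between HF KBD and chow control by edgeR's quasi-likelihood test at an adjusted p under 0.05, which is 0.0519% of the genes. Of these, 4 were higher (0.0297%) and 3 lower (0.0223%) in HF KBD. The genes that rose were HERC5, PLEKHG5, ENG and HADHB, and those that fell were DPYSL2, NDUFS6 and 1 gene without a symbol, ENSSSCG00000055905. In each of the 7 the values of the groups did not overlap. Over all tested genes, HF KBD lay wholly above chow control in 3.78% and wholly below in 3.67%. At an unadjusted p under 0.05, 6.24% of the genes were higher and 6.25% lower, 1683 in all where 674 would be expected with no difference. The median absolute log2 difference of those 1683 genes was 0.45, and 240 of them differed at least 2-fold. The DESeq2 Wald test called 199 genes, or 1.64% of those it tested, and the 7 were among them.

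**Figure D1:**
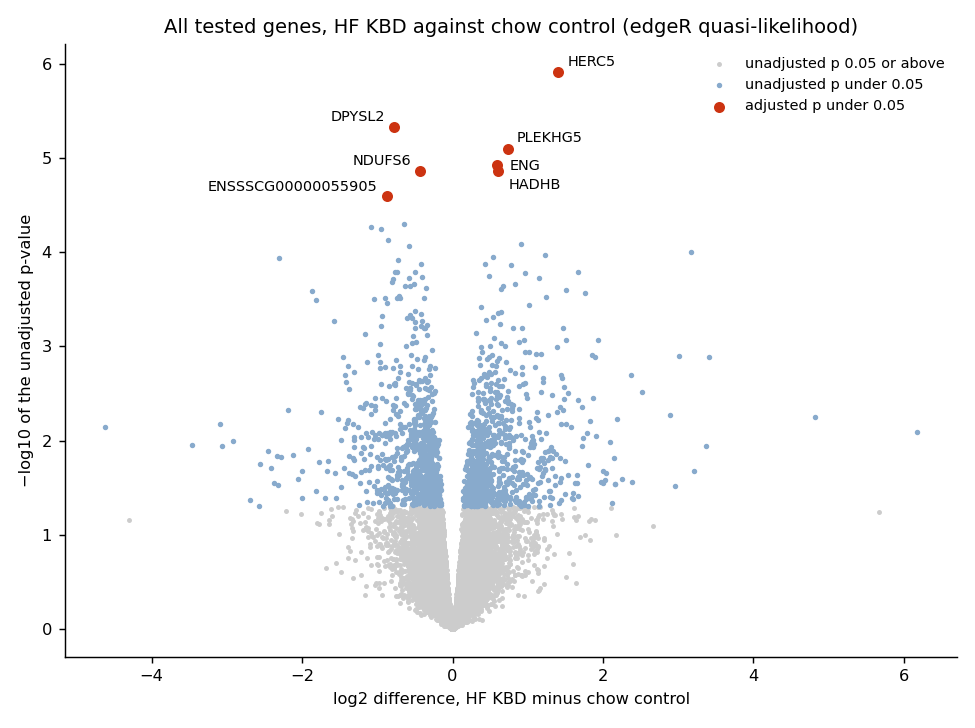
Log2 difference between HF KBD and chow control (x axis) against the −log10 unadjusted p-value (y axis) for 13476 genes, 1 point per gene. The 7 genes past an adjusted p of 0.05 are named, 4 to the right and 3 to the left, and genes at an unadjusted p under 0.05 are about as many on either side (841 and 842).

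HERC5 is an interferon-induced ligase that attaches the ubiquitin-like protein ISG15 to newly made proteins. Its level was 7.66, 7.53, 7.08 and 4.96 CPM in chow control replicates 1 to 4 and 19.3, 17.3, 17.0 and 18.6 CPM in HF KBD replicates 1 to 4. Every HF KBD animal was more than 2-fold above every chow control animal. The gene rose 2.65-fold, a log2 difference of 1.41 ± 0.17 (SE, edgeR adjusted p = 0.0164, n = 4 and 4), and lies on chromosome 8 (130532256 to 130591158, Sscrofa11.1). In HF saline it averaged 22.0 CPM ± 4.79 (SD, n = 4).

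HADHB encodes the beta subunit of the mitochondrial trifunctional protein, which carries out the last steps of long-chain fatty acid oxidation. Levels of 1053, 1110, 1033 and 1070 CPM in chow control stood against 1608, 1674, 1754 and 1439 CPM in HF KBD. The chow control animals were within a narrow range, and the lowest HF KBD animal, replicate 4, was still well above it. HADHB rose 1.52-fold, with a log2 difference of 0.60 ± 0.09 (SE, edgeR adjusted p = 0.0311), and is on chromosome 3 (112712894 to 112753121). HF saline animals averaged 1506 CPM ± 175 (SD, n = 4).

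NDUFS6 is a subunit of respiratory complex I, needed for its assembly. It was at 198, 197, 193 and 196 CPM in chow control and at 151, 136, 139 and 157 CPM in HF KBD. The chow control values differed by no more than a few CPM, and all HF KBD animals were below them. NDUFS6 fell by 0.43 ± 0.07 (SE) on the log2 scale (edgeR adjusted p = 0.0311) and lies on chromosome 16 (78993909 to 79000001). The HF saline mean of 175 CPM ± 5.05 (SD, n = 4) was between those of the other groups.

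ENG encodes endoglin, a co-receptor of endothelial cells for ligands of the TGF-beta family. Chow control animals had 145, 132, 128 and 123 CPM and HF KBD animals 211, 199.9, 209 and 177 CPM. The lowest HF KBD animal, replicate 4, was well above the highest chow control animal, and the increase was 1.51-fold (log2 difference 0.60 ± 0.09, edgeR adjusted p = 0.0311; chromosome 1, 268309379 to 268343861). The 10 endothelial markers tested summed to 705 to 784 CPM in chow control and to 714 to 822 CPM in HF KBD. Of these markers, 2 were higher and 1 lower at an unadjusted p under 0.05 (20% and 10%, against 6.24% and 6.25% of all genes). Their part in the ENG result was not tested. In HF saline ENG averaged 170.5 CPM ± 17.9 (SD, n = 4).

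PLEKHG5, an activator of the small GTPase RhoA, was at 14.2, 13.2, 14.3 and 13.1 CPM in chow control and at 22.3, 21.8, 26.4 and 20.4 CPM in HF KBD. It rose 1.66-fold (log2 difference 0.73 ± 0.11, edgeR adjusted p = 0.0311; chromosome 6, 67316818 to 67373787). HF saline animals averaged 17.6 CPM ± 1.00 (SD, n = 4). PLEKHG5 was 1 of 3 called genes that differed between HF KBD and HF saline at an unadjusted p under 0.05. After adjustment edgeR called 0 genes in that contrast.

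DPYSL2 encodes a protein that binds tubulin and promotes microtubule assembly. It stood at 112, 114, 130 and 119 CPM in chow control and at 61.3, 79.5, 69.4 and 67.3 CPM in HF KBD. The level in chow control was 1.71-fold that in HF KBD, and DPYSL2 fell by 0.77 ± 0.11 (SE) on the log2 scale (edgeR adjusted p = 0.0311; chromosome 14, 10428598 to 10545705). The gene without a symbol, ENSSSCG00000055905, was at 51.7, 60.5, 56.6 and 63.7 CPM in chow control and at 25.1, 32.2, 26.6 and 43.0 CPM in HF KBD. It fell by 0.87 ± 0.14 (SE) on the log2 scale (edgeR adjusted p = 0.0489), and 11 of its 12 expected counts were not whole, so reads were divided between this gene and others. HF saline means were 79.0 CPM ± 11.3 (SD, n = 4) for DPYSL2 and 37.5 CPM ± 1.32 (SD, n = 4) for ENSSSCG00000055905.

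**Figure D2:**
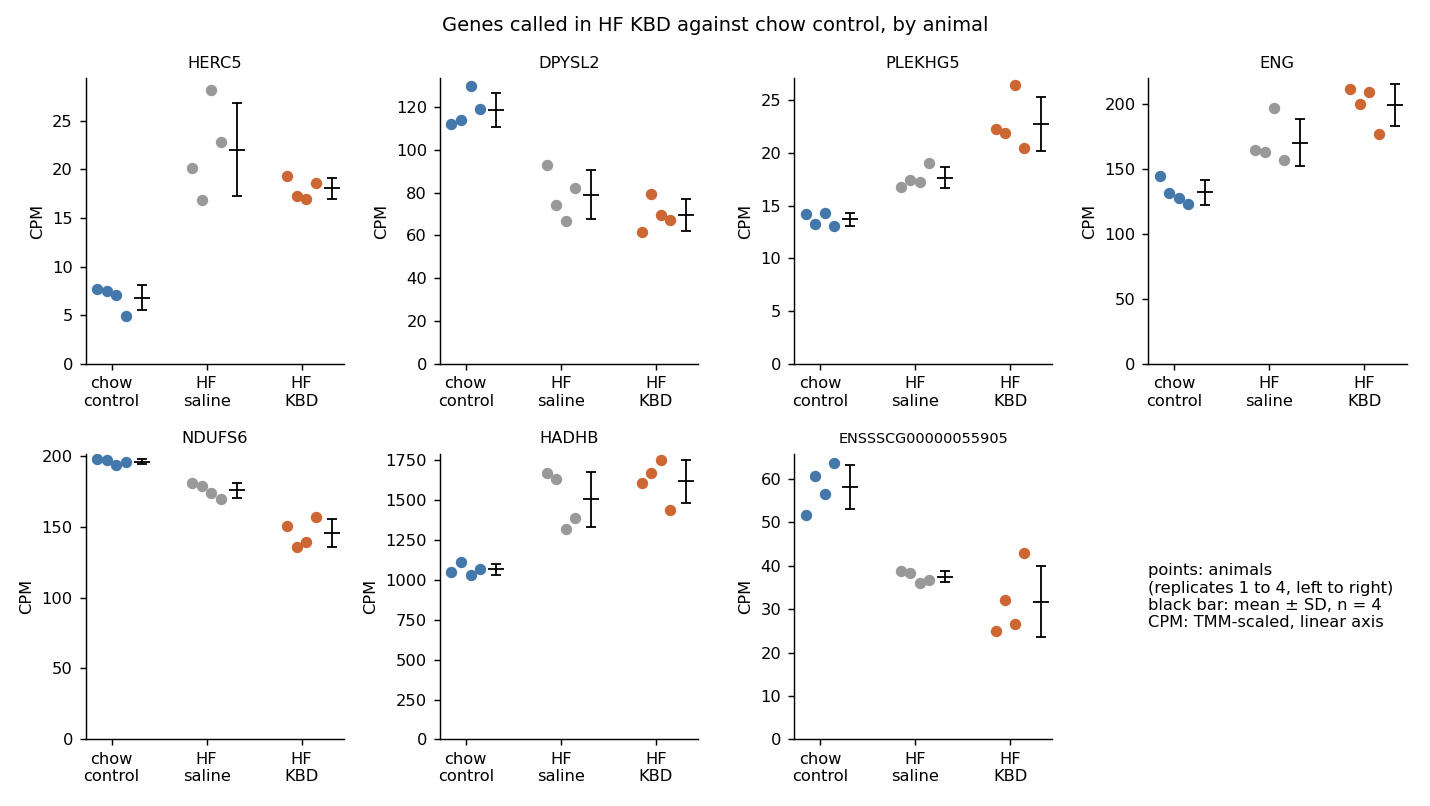
CPM (y axis, linear, from 0) of the 7 called genes in each animal of chow control, HF saline and HF KBD; black bars give the mean ± SD of 4 animals. In all 7 panels the HF KBD and chow control animals lie apart, as for HERC5 with 4.96 to 7.66 against 17.0 to 19.3 CPM.

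The calls depended on single animals. With the set of tested genes held, edgeR called 0 genes without chow control replicate 3, HF KBD replicate 1 or HF KBD replicate 3, where 703 to 770 genes were higher and 729 to 787 lower at an unadjusted p under 0.05. It called 13 without HF KBD replicate 4, 11 without chow control replicate 1, and 2 without chow control replicate 4 or HF KBD replicate 2. It called 1 without HF saline replicate 2 or 4, whose group enters only the scaling and the estimate of the spread. HERC5 kept an adjusted p under 0.05 in 9 of the 12 fits that left out 1 animal, DPYSL2 in 6, PLEKHG5 and ENG in 4, HADHB in 3, and NDUFS6 and ENSSSCG00000055905 in 2. Their log2 differences kept their direction, ranging from 1.28 to 1.46 for HERC5 and from -1.06 to -0.78 for ENSSSCG00000055905.

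The 12 genes with the smallest p-values in each direction at 5 CPM or more included the 7 called ones. The other 17 had edgeR adjusted p-values from 0.0757 to 0.0833. Their groups did not overlap either, but these genes were picked by p-value. Over all tested genes, 3.78% lay wholly higher and 3.67% wholly lower. Of the other 17, 8 had higher values in HF KBD. IFIT5, an antiviral RNA-binding protein, was at 23.9 to 25.3 CPM in chow control and 30.2 to 39.6 CPM in HF KBD (log2 difference 0.53 ± 0.10). UBA7, the enzyme that activates ISG15, was at 8.72 to 16.2 CPM in chow control and 23.7 to 31.9 CPM in HF KBD (1.15 ± 0.22). ANGPTL2, a secreted angiopoietin-like protein, was at 16.5 to 24.8 CPM against 28.3 to 42.9 CPM (0.91 ± 0.17). Other genes with higher values were GSAP, a protein linked to gamma-secretase (0.78 ± 0.15), SLC46A3, a lysosomal transporter (0.97 ± 0.19), STRIP2 (0.49 ± 0.10) and ENSSSCG00000039731, which has no symbol (1.23 ± 0.23).

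Of the other 17 genes, 9 had lower values in HF KBD. FBN2, which encodes the microfibril protein fibrillin-2, was at 3.96, 4.49, 8.79 and 3.77 CPM in chow control and at 0.82, 1.04, 1.83 and 0.55 CPM in HF KBD. The log2 difference was -2.30 ± 0.43 (edgeR adjusted p = 0.0833), the largest among these 24 genes, and ranged from -2.71 to -1.93 when 1 animal was left out. P4HA1, a subunit of the collagen prolyl hydroxylase, was at 33.7 to 56.2 CPM in chow control and 17.7 to 28.2 CPM in HF KBD (-0.96 ± 0.17). LAMB2, the laminin beta-2 chain, had 999 to 1162 CPM against 791 to 847 CPM (-0.42 ± 0.08). The small heat shock protein HSPB1 was at 688 to 982 CPM in chow control and 503 to 636 CPM in HF KBD (-0.64 ± 0.11), though none of its expected counts was whole, so its reads were divided with another gene. A4GALT, the synthase of the glycolipid Gb3, had a log2 difference of -0.74 ± 0.14, NABP1, a single-stranded DNA binding protein, of -1.09 ± 0.19, and GAREM1, an adaptor of growth factor signalling, of -0.58 ± 0.11. ABTB2 (-0.86 ± 0.15) and EHBP1L1 (-0.72 ± 0.14) completed the list.

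Gene groups were followed through 21 lists that held 461 symbols, of which 433 had an identifier and 413 were tested. Only 2 of the lists, interferon response and fatty acid oxidation, held a called gene, and no list test was run. The median log2 difference over all tested genes was -0.00152. By the DESeq2 Wald test, 3 members of each of these 2 lists were called, all higher, and 12 lists had 0 called members. The plot of list values by animal shows, for each heart, the median over a list's members of log2(CPM + 0.5) minus the chow control mean. By this measure interferon response was the only list in which all HF KBD animals were above all chow control animals, and in none were they all below.

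**Figure D3:**
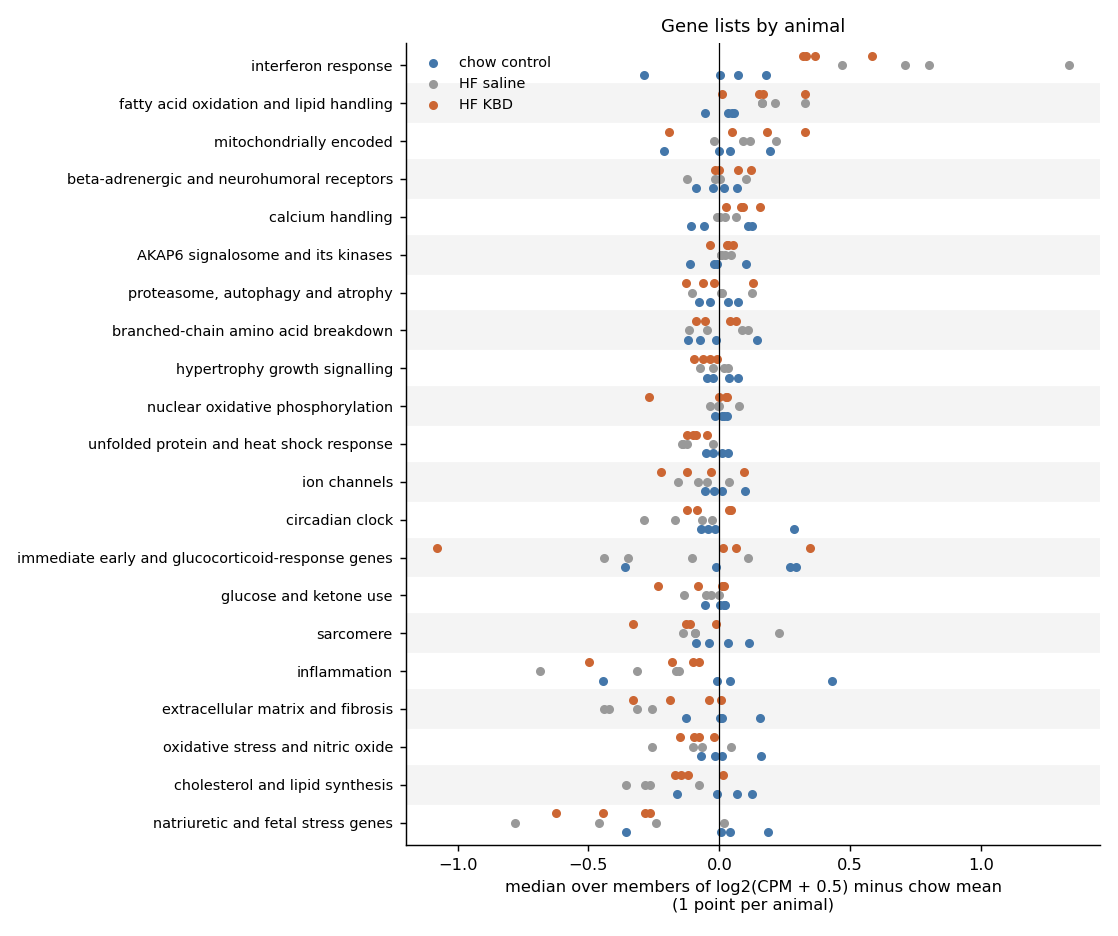
Median over the tested members of each of 21 gene lists of log2(CPM + 0.5) minus the mean of chow control (x axis), 1 point per animal, with lists ordered by their log2 difference in HF KBD. HF KBD animals lie between 0.32 and 0.58 for interferon response, to the right of all chow control animals (-0.29 to 0.18), and the groups overlap in the other 20 lists.

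Interferon-stimulated genes are switched on by type I and type II interferons, and many encode antiviral proteins. Of 29 listed, 26 were tested, and HERC5 was the 1 called. At an unadjusted p under 0.05, 10 members were higher (38.5%, against 6.24% of all genes) and 1 lower (3.85%, against 6.25%). The list's median log2 difference was 0.47, and 7 members lay wholly higher in HF KBD, as did 3.78% of all tested genes. Per animal, the list stood at 0.07, 0.18, 0.00 and -0.29 in chow control and at 0.32, 0.36, 0.58 and 0.33 in HF KBD. The median log2 difference was between 0.35 and 0.49 when each animal was left out, and the number of members higher at an unadjusted p under 0.05 fell to 6 without chow control replicate 4 or HF KBD replicate 3 and reached 14 without chow control replicate 1.

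The antiviral GTPase MX1 was at 21.7, 21.8, 19.4 and 9.32 CPM in chow control and at 41.2, 37.3, 45.5 and 46.5 CPM in HF KBD, a log2 difference of 1.24 ± 0.25 (edgeR adjusted p = 0.0863). For MX2, its close relative, the values were 37.3, 75.5, 45.2 and 31.0 CPM against 65.9, 75.0, 78.7 and 77.0 CPM (0.65 ± 0.21). Chow control replicate 2 overlapped the HF KBD animals for MX2, and replicate 4 was the lowest chow control animal for both. USP18, the protease that removes ISG15 and dampens interferon signalling, had 3.67 to 7.53 CPM in chow control and 11.4 to 16.1 CPM in HF KBD (1.05 ± 0.41). RIGI, a sensor of viral RNA, had 8.43 to 17.9 CPM against 18 to 22.1 CPM (0.62 ± 0.25), and RSAD2, the antiviral enzyme viperin, had 5.06 to 25.8 CPM against 19.4 to 32.9 CPM (0.98 ± 0.42). ISG15 itself overlapped, at 4.36 to 21.1 CPM in chow control and 12.1 to 27.3 CPM in HF KBD (0.63 ± 0.48). IRF1 was the member lower at an unadjusted p under 0.05. It, ISG15, USP18, RIGI, RSAD2 and IRF9 were named after their values were seen. This transcription factor was at 20.2, 62.2, 22.1 and 60.1 CPM in chow control and at 13.1, 23.8, 18.5 and 17.3 CPM in HF KBD, so chow control replicates 2 and 4 stood apart from the rest.

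HF saline animals, set against the same chow control animals, had a median of 0.83 on this list, and their values per animal were 0.71, 0.47, 1.33 and 0.80. In the direct contrast of HF KBD with HF saline, 9 of the 26 members were lower in HF KBD and 0 higher at an unadjusted p under 0.05, where 559 of all genes (4.15%) passed that level in either direction and 0% passed an adjusted p of 0.05 (smallest edgeR adjusted p = 0.9995). IRF9, a transcription factor of type I interferon signalling, showed the largest of these, at -0.95 ± 0.22, and its log2 difference from chow control was -0.10 ± 0.22 in HF KBD and 0.85 ± 0.22 in HF saline. Markers of T and NK cells, 7 tested, summed to 11.7 to 23.2 CPM in chow control, 15.9 to 23.5 CPM in HF KBD and 13.2 to 44.3 CPM in HF saline. Macrophage markers, 10 tested, summed to 291 to 321 CPM, 222 to 333 CPM and 216 to 423 CPM in the same order. No marker of either list was at 0 in all 8 animals, and their part in the interferon values was not tested.

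**Figure D4:**
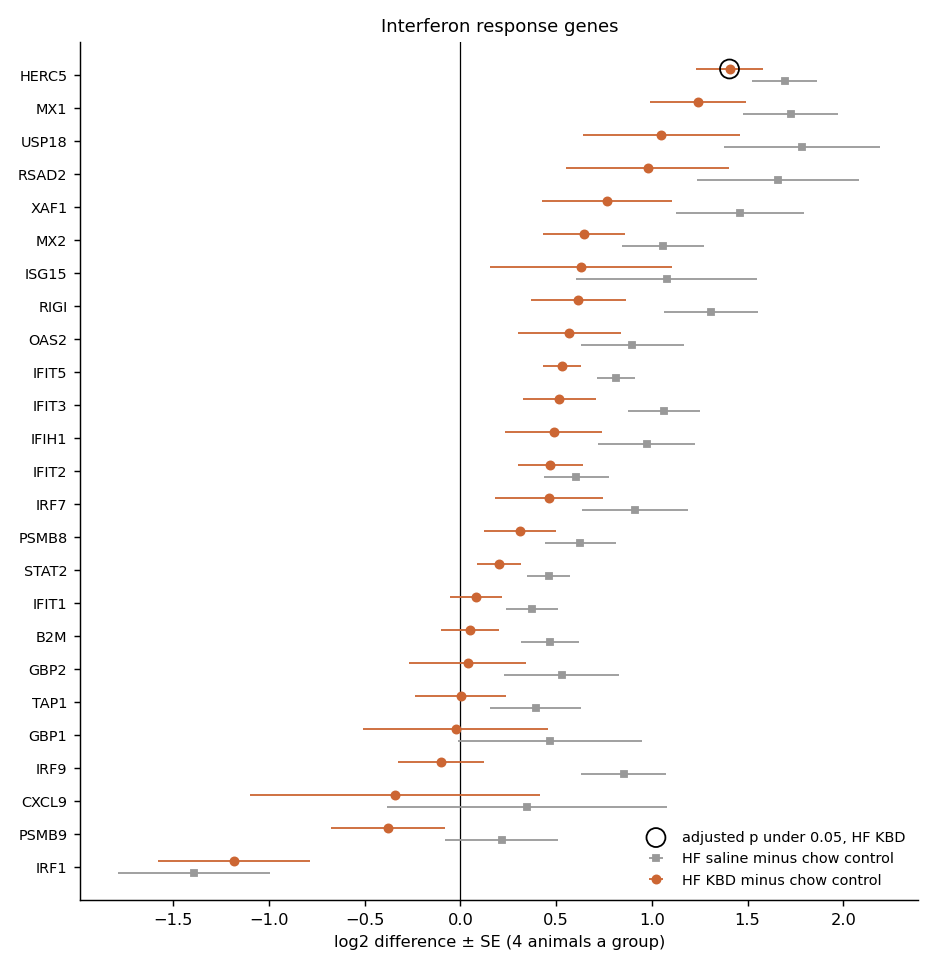
Log2 difference from chow control ± SE (x axis) of 25 of the 26 tested interferon response genes (y axis), for HF KBD (orange circles) and HF saline (grey squares), which share their chow control animals; the ring marks HERC5, called in HF KBD. Over all 26 the median is 0.47 for HF KBD and 0.83 for HF saline, and IRF1 is lowest in both.

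Fatty acids are the main fuel of the adult heart, and their genes answer to the lipid-sensing PPAR receptors. Of 35 genes for fatty acid oxidation and lipid handling, 33 were tested. HADHB was called, and the median log2 difference was 0.15. At an unadjusted p under 0.05, 10 members were higher (30.3%, against 6.24% of all genes) and 1 lower (3.03%, against 6.25%). The number higher ran from 7 without HF KBD replicate 1 to 11 without chow control replicate 4. Along the path of oxidation, fatty acids are activated by ACSL1, which was at 501, 624, 531 and 679 CPM in chow control and at 723, 680, 801 and 770 CPM in HF KBD (log2 difference 0.35 ± 0.11, edgeR adjusted p = 0.243). Entry into mitochondria depends on CPT1A, at 5.74, 27.0, 32.2 and 25.3 CPM against 36.2, 54.6, 54.8 and 47.1 CPM (1.08 ± 0.36), and on CPT2, at 51.0 to 63.1 CPM against 61.5 to 81.6 CPM (0.32 ± 0.10). CPT1B, the muscle form of the same entry enzyme, differed by -0.05 ± 0.07. ETFDH, which passes electrons from oxidation to the respiratory chain, was at 426 to 502 CPM against 512 to 587 CPM (0.22 ± 0.08). HADHA, the partner subunit of HADHB, differed by 0.22 ± 0.16 and its groups overlapped.

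The lipid-binding protein FABP4 was at 57.4, 41.7, 56.5 and 74.4 CPM in chow control and at 87.0, 145, 107 and 85.9 CPM in HF KBD (0.89 ± 0.20, edgeR adjusted p = 0.141), and the groups did not overlap. ANGPTL4, an inhibitor of lipoprotein lipase, was at 9.44, 45.3, 22.9 and 34.1 CPM against 75.1, 124, 66.5 and 50.4 CPM (1.49 ± 0.40, edgeR adjusted p = 0.203). Its groups were apart as well, but FABP4 and ANGPTL4 were picked by p-value. Of all tested genes, 3.78% lay wholly higher. PDK4, a kinase that restrains glucose oxidation, had 36.9, 2611, 1458 and 946 CPM in chow control and 1594, 2263, 2964 and 3039 CPM in HF KBD (0.96 ± 0.82). Chow control replicate 1 was lowest for CPT1A, ANGPTL4 and PDK4, and without it the list's median log2 difference was 0.09. DGAT1, which makes triglyceride, was the 1 member lower at an unadjusted p under 0.05, at 28.7 to 34.5 CPM against 20.8 to 26.7 CPM (-0.32 ± 0.11). Adipocyte markers, of which FABP4 is 1 of 4 tested, summed to 247 to 402 CPM in chow control and 297 to 336 CPM in HF KBD. Their median log2 level relative to the chow control mean lay wholly higher in HF KBD, at -0.17 to 0.20 in chow control, 0.28 to 0.47 in HF KBD and 0.30 to 0.63 in HF saline. The single markers did not move together, as 2 of the 4 had higher values in HF KBD and 2 lower. PLIN1 and CIDEC did not pass the expression filter. Their counts totalled 21 and 18 in chow control and 6 and 11 in HF KBD. LEP was at 0 in all 8 animals, and ADIPOQ reached at most 2.88 CPM in chow control and 0.09 CPM in HF KBD. The part of adipocyte markers in the lipid values was not tested. In HF saline the list's median was 0.19. ACSL1, CPT1A, CPT1B, ETFDH, HADHA, PDK4 and DGAT1 were named after their values were seen.

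**Figure D5:**
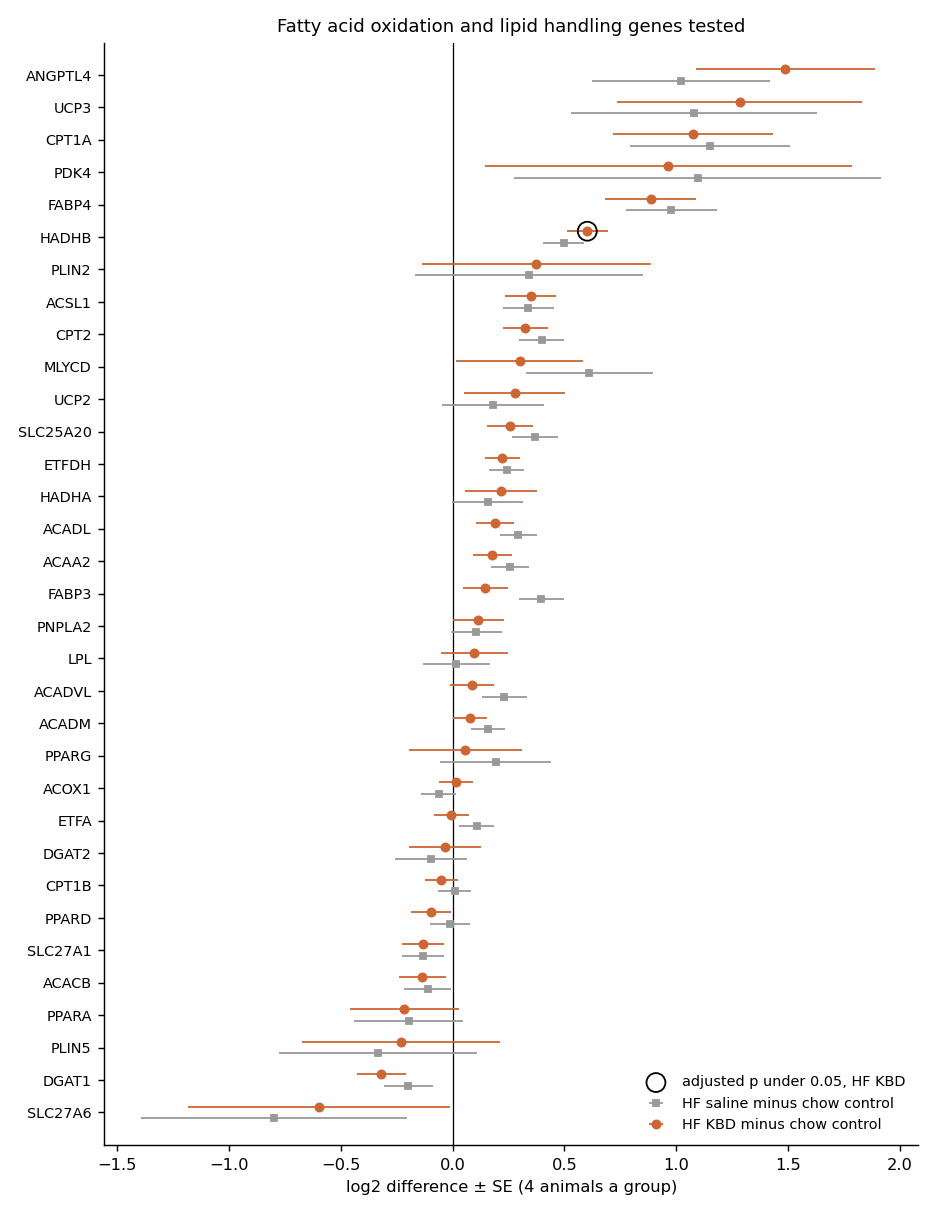
Log2 difference from chow control ± SE (x axis) of 33 tested genes of fatty acid oxidation and lipid handling (y axis), for HF KBD (orange circles) and HF saline (grey squares), which share their chow control animals; the ring marks HADHB. In HF KBD, ANGPTL4 is highest at 1.49 and SLC27A6 lowest at -0.60.

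Natriuretic peptides are released by stretched cardiomyocytes and are markers of heart failure. The natriuretic and fetal stress list had 11 of 14 genes tested, with 0 called, 0 higher and 4 lower (36.4%, against 6.25% of all genes) at an unadjusted p under 0.05, and a median log2 difference of -0.27. NPPA, which encodes atrial natriuretic peptide, was at 218, 185, 377 and 401 CPM in chow control and at 94.9, 86.2, 124 and 198 CPM in HF KBD (-1.23 ± 0.48, edgeR adjusted p = 0.336). NPPB, for B-type natriuretic peptide, was at 1.66, 9.23, 36.3 and 13.3 CPM against 1.54, 3.93, 1.64 and 1.01 CPM (-2.92 ± 0.93, edgeR adjusted p = 0.249). For both peptides the highest values were in chow control and the groups overlapped. NPR3, the clearance receptor of natriuretic peptides, was at 85.3, 117, 120 and 131 CPM against 72.4, 91.2, 68.2 and 76.2 CPM (-0.56 ± 0.12, edgeR adjusted p = 0.108). The 3 members with the highest CPM had log2 differences of -0.22 ± 0.18 for skeletal actin ACTA1, -0.40 ± 0.26 for the stress-responsive ANKRD1 and 0.51 ± 0.25 for the fast myosin MYH6. MYH6 was at 1069 to 1273 CPM in chow control and at 1377, 995, 2762 and 1799 CPM in HF KBD, and none of its expected counts was whole.

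The 6 atrial markers tested, NPPA among them, summed to 285 to 523 CPM in chow control and 179.9 to 353 CPM in HF KBD. Of these markers, 1 was higher and 2 lower at an unadjusted p under 0.05 (16.7% and 33.3%, against 6.24% and 6.25% of all genes). The atrial light chain MYL4, which is on both lists and was named after its values were seen, was at 18.6, 0.51, 4.88 and 24.7 CPM in chow control and at 0.83 to 2.47 CPM in HF KBD. The part of tissue sampling in the values of NPPA and NPPB was not tested. The list's median was -0.54 without HF KBD replicate 4 and -0.16 without chow control replicate 3, and in HF saline it was -0.43. Without chow control replicate 4, HF KBD replicate 1 or HF KBD replicate 2, 2 members in place of 4 were lower at an unadjusted p under 0.05.

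The AKAP6 complex, the target of the peptide, showed no called gene. All 30 members with an identifier were tested, and the median log2 difference was 0.02. At an unadjusted p under 0.05, 2 were higher and 2 lower (6.67% each, against 6.24% and 6.25% of all genes). With 1 animal left out, the number lower ran from 0, without chow control replicate 1 or HF KBD replicate 2, to 3, without HF KBD replicate 4. Among the transcription factors, MEF2C was at 63.3, 68.0, 71.5 and 62.8 CPM in chow control and at 72.8, 76.8, 79.8 and 89.6 CPM in HF KBD (0.26 ± 0.08, edgeR adjusted p = 0.224). MEF2A differed by 0.25 ± 0.10, SRF by -0.28 ± 0.11 and NFATC3 by -0.24 ± 0.10. RPS6KA2, which encodes RSK3, was at 3.98 to 7.04 CPM against 5.48 to 7.40 CPM (0.37 ± 0.22). The 3 members with the highest CPM were the adenylyl cyclase ADCY6 (-0.06 ± 0.08), the protein kinase A regulatory subunit PRKAR1A (0.12 ± 0.14) and the histone deacetylase HDAC5 (-0.17 ± 0.14). AKAP6 and RPS6KA2 were named for their place in the complex that the peptide comes from, and NFATC3 after its value was seen, not by the naming rule. Of 19 other genes of hypertrophic growth signalling tested, 2 were higher and 4 lower at an unadjusted p under 0.05. These were 10.5% and 21.1%, against 6.24% and 6.25% of all genes. The stress kinase MAPK14 (-0.27 ± 0.08), the cardiac transcription factor GATA4 (-0.28 ± 0.08) and the coactivator MYOCD (0.41 ± 0.12) had the smallest p-values there, with edgeR adjusted p-values from 0.2 to 0.203. Their groups did not overlap, but these genes were picked by p-value. Over all tested genes, 3.78% lay wholly higher and 3.67% wholly lower.

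Calcium handling genes move calcium in and out of the cytosol at each beat. Of 13 tested, 0 were called and 1 was higher at an unadjusted p under 0.05 (7.69%, against 6.24% of all genes). ATP2A2, the calcium pump of the sarcoplasmic reticulum, was at 3248, 3738, 3437 and 2969 CPM in chow control and at 3993, 3759, 4785 and 4112 CPM in HF KBD (0.31 ± 0.10, edgeR adjusted p = 0.242). The release channel RYR2 differed by 0.25 ± 0.12, the exchanger SLC8A1 by -0.14 ± 0.09 and the kinase CAMK2D by -0.18 ± 0.10. Among 14 ion channel genes, the potassium channel KCNH2 (-0.45 ± 0.13), the potassium channel subunit KCNE1 (-0.26 ± 0.10) and the acetylcholine-activated potassium channel subunit KCNJ3 (0.29 ± 0.11) had the smallest p-values. Of 18 neurohumoral receptor genes, AGTR1, the angiotensin II receptor, was at 25.3 to 37.0 CPM against 22.3 to 25.6 CPM (-0.38 ± 0.11). PDE5A, which degrades cyclic GMP, differed by 0.40 ± 0.18 and the endothelin receptor EDNRA by -0.16 ± 0.09.

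Contractile genes had 0 of 16 called, and 14 had lower values, as did 50.3% of all tested genes. At an unadjusted p under 0.05, 0 were higher and 1 lower (6.25%, against 6.25% of all genes). Per animal, the list stood at -0.09 to 0.11 in chow control and at -0.33 to -0.01 in HF KBD, so the groups overlapped. Cardiac actin ACTC1 was at 6865, 4265, 3502 and 7577 CPM in chow control and at 3433, 4152, 2461 and 3870 CPM in HF KBD (-0.67 ± 0.23, edgeR adjusted p = 0.257), with chow control replicates 1 and 4 above all other animals. TPM1, tropomyosin, differed by -0.25 ± 0.12 and MYOZ2, a calcineurin-binding protein of the Z-disc, by -0.25 ± 0.13.

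Fibrosis genes had 33 of 36 tested, 0 called and a median log2 difference of -0.13. At an unadjusted p under 0.05, 0 were higher and 3 lower (9.09%, against 6.25% of all genes). The number lower was 5 without chow control replicate 2. POSTN, periostin of activated fibroblasts, was at 39.7, 17.6, 35.7 and 46.6 CPM in chow control and at 18.7, 23.7, 8.86 and 9.98 CPM in HF KBD (-1.19 ± 0.34, edgeR adjusted p = 0.215). Fibrillar collagen COL3A1 was at 1060, 809, 1102 and 1461 CPM against 745, 792, 801 and 741 CPM (-0.53 ± 0.17), and LTBP2, which binds microfibrils, differed by -0.70 ± 0.22. COL1A1, the main collagen of scar and named after its value was seen, differed by -0.07 ± 0.18. Fibroblast markers, 10 tested and COL3A1 among them, summed to 1766 to 2722 CPM in chow control and 1683 to 2095 CPM in HF KBD, and their part in these values was not tested. In HF saline the median of the fibrosis list was -0.33, and 7 of its genes were higher in HF KBD than in HF saline at an unadjusted p under 0.05, with 0 lower. In that contrast 559 of all genes (4.15%) passed that level in either direction, and edgeR called 0. At the same level 4 of 10 fibroblast markers and 4 of 10 smooth muscle and pericyte markers were higher, with 0 lower in either. The fibroblast markers COL1A1, COL1A2, COL3A1, DCN and LUM are also on the fibrosis list, so these counts are not independent. The median log2 level of the fibroblast markers relative to the chow control mean was -0.21 to 0.16 in HF KBD and -0.44 to -0.21 in HF saline, and that of the smooth muscle and pericyte markers -0.24 to 0.05 and -0.45 to -0.25.

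Genes of the respiratory chain encoded in the nucleus had 0 of 28 called and a median of -0.07, without NDUFS6, which was not on the list. PPARGC1A, a coactivator of mitochondrial biogenesis, was at 55.8 to 91.1 CPM in chow control and 49.1 to 61.9 CPM in HF KBD (-0.44 ± 0.14), and cytochrome c, CYCS, differed by 0.38 ± 0.14. NDUFA9, another complex I subunit, differed by -0.28 ± 0.13. HF KBD replicate 2 was the lowest animal of this list at -0.27, and without it the list's median was 0.01. Of 12 mitochondrially encoded genes, ND2 was at 1766, 2196, 2057 and 2088 CPM in chow control and at 2823, 2428, 2763 and 2328 CPM in HF KBD (0.35 ± 0.09, edgeR adjusted p = 0.188), ND1 differed by 0.21 ± 0.10 and COX1 by 0.16 ± 0.10. Mitochondrially encoded transcripts took 8.43% to 10.5% of the counts in chow control and 8.81% to 11.4% in HF KBD.

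Inflammatory genes had 0 of 17 called and a median log2 difference of -0.11. At an unadjusted p under 0.05, 3 were lower (17.6%, against 6.25% of all genes) and 0 higher. The number lower was 1 without chow control replicate 2 and 6 without chow control replicate 1, and the median ran from -0.24 without HF KBD replicate 3 to 0.02 without HF KBD replicate 1. The adhesion molecule ICAM1 was at 19.1, 282, 27.4 and 161 CPM in chow control and at 23.3, 39.7, 32.1 and 43.8 CPM in HF KBD (-1.82 ± 0.74, edgeR adjusted p = 0.35). Chow control replicates 2 and 4 alone were high, as they were for IRF1. TLR4, a receptor for bacterial lipopolysaccharide, was at 6.00, 11.5, 11.9 and 16.1 CPM against 5.96, 5.59, 7.67 and 4.49 CPM (-0.94 ± 0.26), and NFKB1 differed by -0.43 ± 0.16.

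Glucose and ketone genes had 0 of 24 called. The subunit of lactate dehydrogenase LDHB showed the largest difference, with 40.3, 182, 322 and 40.0 CPM in chow control and 30.3 to 34.2 CPM in HF KBD (-2.19 ± 0.61, edgeR adjusted p = 0.215). Only chow control replicates 2 and 3 were far above HF KBD, and none of the LDHB expected counts was whole. The insulin receptor substrates IRS2 (-0.47 ± 0.22) and IRS1 (-0.32 ± 0.16) followed. Of 19 genes of cholesterol and lipid synthesis tested, SQLE, a sterol synthesis enzyme (-1.21 ± 0.42), and the fatty acid synthase FASN (-0.33 ± 0.12) had lower values and the cholesterol exporter ABCG1 higher ones (0.88 ± 0.34), with 0 called.

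The heat shock and unfolded protein list had 0 of 21 called and a median of -0.07. Beside HSPB1, the chaperones DNAJB1 (-0.34 ± 0.12) and CRYAB (-0.23 ± 0.11) lay wholly lower in HF KBD, as did 3.67% of all tested genes. Of 16 genes of oxidative stress and nitric oxide, DDAH2, which breaks down an inhibitor of nitric oxide synthase, was at 24.8 to 37.2 CPM in chow control and 15.7 to 22.0 CPM in HF KBD (-0.71 ± 0.15, edgeR adjusted p = 0.0863). Catalase, CAT, was at 329.9 to 378 CPM against 406 to 464 CPM (0.28 ± 0.08), and GCLC, which starts glutathione synthesis, differed by 0.49 ± 0.15. Among 17 clock genes CRY2 (-0.47 ± 0.17), HLF (-0.37 ± 0.16) and BMAL1 (-0.82 ± 0.41) had the smallest p-values, and among 21 immediate early and glucocorticoid-response genes NR4A3 (-2.13 ± 0.73), FKBP5 (-0.53 ± 0.23) and NR4A2 (0.60 ± 0.27), with 0 called in either list. Branched-chain amino acid genes, 11 tested, had 0 called and 0 at an unadjusted p under 0.05, with log2 differences of -0.18 ± 0.09 for BCAT2, 0.11 ± 0.10 for MCCC2 and -0.10 ± 0.09 for BCKDHA. The 15 genes of proteasome, autophagy and atrophy likewise had 0, with -0.24 ± 0.14 for FOXO3, -0.14 ± 0.10 for UBB and -0.16 ± 0.13 for FOXO1.

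Set directly against HF saline, the called genes NDUFS6, PLEKHG5 and ENG differed at an unadjusted p under 0.05, each with an edgeR adjusted p = 0.9995. In that contrast 559 of all genes (4.15%) passed the unadjusted level, where 674 would be expected with no difference, and edgeR called 0. NDUFS6 was lower in HF KBD by a log2 difference of -0.27 ± 0.07, with 136 to 157 CPM against 169 to 181 CPM in HF saline. PLEKHG5 was higher by 0.37 ± 0.10, with 20.4 to 26.4 CPM against 16.8 to 19.1 CPM, and ENG by 0.23 ± 0.09, with 177 to 211 CPM against 157 to 197 CPM. The groups did not overlap for NDUFS6 and PLEKHG5 and overlapped for ENG, but these genes were picked by p-value. The share of all genes without overlap is not given for this contrast. For the other called genes the difference between HF KBD and HF saline was -0.29 ± 0.16 for HERC5, 0.10 ± 0.09 for HADHB, -0.19 ± 0.11 for DPYSL2 and -0.24 ± 0.14 for ENSSSCG00000055905. Against the shared chow control animals, HF saline passed an edgeR adjusted p of 0.05 for HERC5, DPYSL2 and HADHB (adjusted p = 0.00176, 0.045 and 0.0474), in a comparison that called 0.26% of all genes.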

How the data were processed

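RNA was extracted from 12 hearts, selected for poly(A) tails and made into libraries, per the labels' protocols. The authors deposited expected counts per gene, which need not be whole, and the submitters' processing notes name STAR 2.7.10a, RSEM 1.3.1 and the genome build Sscrofa11.1 without saying how each was used. Of 35670 gene rows, 15623 matched a symbol by identifier, and 4.54% of the values were not whole. The spike-in RNA named in the protocol has 0 rows in the table, and 0 columns were left unmatched. The vector row was kept out of library sizes and gene tests.

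Expected counts were rounded, and 13476 genes passed edgeR's expression filter (minimum count 10, minimum total 15). All 12 animals were fitted with TMM scaling and 1 mean per group in edgeR 4.0.16 (limma 3.58.1, R 4.3.3), by the robust quasi-likelihood test with Benjamini-Hochberg adjustment over all tested genes. Every adjusted p comes from it unless DESeq2 1.42.0 is named. SE is the standard error of the log2 difference. Genes were named if called, if among the 12 smallest p-values per direction at a mean of 5 CPM or more, or if called or among the 3 smallest p-values of a list; for the natriuretic, AKAP6 and calcium lists the 3 highest CPM were added. Exceptions are stated beside their values. Some genes that the rule or a list holds are not reported here by name, though counts and medians include them. The members and lists were chosen with earlier results of these data known. The procedure was tested on simulated data. Symbols are those of the gene table paired with the identifiers, and coordinates are those of a RefSeq gene table for Sscrofa11.1. Depth, 7721640 to 12638000 counts per animal, gave a median SE of 0.17, and p-values measure only the spread between these hearts. Alternatives were other scalings, tests, filters and thresholds, unrounded counts, fits of 8 animals, a surrogate variable (sva 3.50.0) and leaving out each animal.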

Additional observations from a re-analysis of the deposited data

Results flagged for a closer look

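Of 235 groups of 4 animals examined (each named gene, each list value and each library measure, in chow control and in HF KBD), 11 had 1 animal whose gap to its nearest neighbour took more of the group's range than Dixon's 95% limit for 4 values allows. Chance alone gives about 1 in 20, or 11.8.

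In chow control, replicate 3 was set apart for 4 genes. It was highest for FBN2, at 8.79 CPM against 4.49 CPM in the next animal (gap share 0.857), and for CAMK2D, at 679.8 CPM against 582 CPM (0.975). It was lowest for PDE5A, at 7.16 CPM against 9.62 CPM (0.870), and for MYH6, at 1069 CPM against 1245 CPM (0.861). Replicate 1 was highest for the circadian clock list, at 0.29 against -0.02 (0.847).

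In HF KBD, replicate 1 was lowest for GAREM1, at 24.1 CPM against 29.9 CPM (0.937), and for CRYAB, at 1349 CPM against 1505 CPM (0.865). Replicate 2 was lowest for CRY2, at 87.2 CPM against 115 CPM (0.867), and for the nuclear oxidative phosphorylation list, at -0.27 against -0.00043 (0.903). UBA7 was highest in replicate 3, at 31.9 CPM against 25.1 CPM (0.832). The number of genes with a count was lowest in replicate 4, at 17946 against 18079 (0.905).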

How the results depend on the processing

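The 7 calls kept their direction under every alternative run. In place of 7 genes, the DESeq2 Wald test called 199, no filter on low counts 35, a surrogate variable 26 and an adjusted p under 0.10 called 53. Asking also for an absolute log2 difference of at least 1 left 1, HERC5. Fitting only the 8 animals called 5, of which HADHB, DPYSL2 and HERC5 were among the 7. Leaving out 1 animal gave between 0 and 13 calls. Over the 10 settings that keep all animals of both groups at the same threshold, 63 of 70 calls of these genes held, and 30 of 84 held when 1 animal was left out, where fewer animals were tested. Among the other named genes, 45 of 1530 values were newly called, 27 of them by DESeq2, and only ADCY6 changed sign, from -0.06 to 0.017 without chow control replicate 1 (range -0.10 to 0.017). List medians changed sign in 21 of 336 cases and moved by more than 1 SD in 6. The vector transcript level was 30.5 to 44.3 CPM without each animal in turn, an alternative chosen after seeing the data, as was column totals for the list medians. Its exact permutation p was then 0.0571, the smallest that 3 against 4 allows. The cause of these shifts was not tested. No paired analysis was made, since the groups are different animals and the labels give no pairing. The labels carry no replicate numbers, and those used here only follow the order of the sample records.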

Other observations

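Gene families were also read by symbol, a choice made after values had been seen, so they are given as values without a test. Of the 16 tubulin genes tested, whose proteins build microtubules, 13 had lower values in HF KBD than in chow control, 8 of them at an unadjusted p under 0.05 (a level that 6.25% of all genes passed on the lower side), and 0 were called by edgeR. Their median log2 difference was -0.33, with -0.63 for TUBB, -0.54 for TUBB4B and -0.54 for TUBA8, and in HF saline against the same chow control animals the median was -0.19. Cytosolic ribosomal protein genes had lower values in 53 of 55, with a median of -0.11 in HF KBD and -0.03 in HF saline. Of 41 complex I subunit and assembly genes, 31 had lower values, with a median of -0.10 in HF KBD and 0.00186 in HF saline, and without HF KBD replicate 2 the median in HF KBD was -0.02. NDUFC2 stood next to NDUFS6 at -0.41 ± 0.08. ATP synthase genes had lower values in 12 of 13 (median -0.07) and mitochondrial ribosomal protein genes in 42 of 65 (median -0.05), but without HF KBD replicate 2 these medians were 0.0088 and -0.0085. Over all tested genes 50.3% had lower values. Genes of a family share their animals, and their values are not independent.

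In the direct contrast of HF KBD with HF saline, where edgeR called 0 genes, the smallest p-values among genes with a symbol included AFF4, a transcription elongation factor (log2 difference 0.94), ACE, angiotensin-converting enzyme (0.63), C1QTNF3 (1.03), the collagen COL14A1 (0.70) and NENF (-0.59). Against the shared chow control animals, ACE stood at 0.11 ± 0.14 in HF KBD and -0.51 ± 0.14 in HF saline, and AFF4 at 0.52 ± 0.21 and -0.43 ± 0.22.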
